A study of Mus musculus with 12 samples.

Results

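The Reg family (regenerating islet-derived genes) was followed in laser-captured pancreatic islets of 2 mouse strains. All non-control array probes whose accession matched Reg1, Reg2, Reg3a, Reg3b, Reg3g, Reg3d or Reg4 were taken. This gave 7 probes of 41174, 1 for each of 7 genes among the 17016 gene symbols on the array. Islet sections of 6 NOD and 6 NOD.B10 mice were compared, all female and 12 weeks old. NOD mice develop autoimmune diabetes, and NOD.B10 mice share the NOD background but carry another MHC haplotype and do not become diabetic. Each array held the amplified RNA of 1 mouse, pooled from sections of many islets, in the Cy5 channel, against a common universal mouse reference RNA in the Cy3 channel. The captured tissue is not a pure cell population, and in such bulk RNA a smaller number of cells of a type and less RNA per cell cannot be told apart. The labels name separate samples of each strain, and the p-values measure the spread between these arrays.

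Reg proteins are small secreted proteins with a C-type lectin fold, made mainly by the pancreas and the gut. Acinar cells, the enzyme-producing cells of the exocrine pancreas that surround the islets, secrete Reg1 and Reg2, and their output rises in injury and regeneration. Reg3b and Reg3g are antibacterial lectins of the gut epithelium that are also induced in the inflamed pancreas, where cytokines of the IL-6 and IL-22 families act through the factor STAT3. Reg3a and Reg3d are related secreted lectins, Reg4 is best known from the gut, and Extl3, an exostosin-like glycosyltransferase, has been described as a receptor for Reg proteins. The Reg values are therefore set beside the signal of acinar enzyme genes on the same array.

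Of the 7 genes, 6 lie in a cluster on chromosome 6, in the order Reg3b, Reg3d, Reg3a, Reg2, Reg1 and Reg3g, with a pseudogene before Reg3g, and Reg4 lies on chromosome 3. The 250 bases before the annotated start are shown for the 3 genes with enough islet signal to be tested and for Reg3d, which was read on 1 array. They come from RefSeq, mouse build GRCm38.p6. Reg1 is chr6:78425733-78425982, Reg2 is chr6:78404905-78405154 and Reg3b is chr6:78370635-78370884, all on the plus strand, and Reg3d is chr6:78378866-78379115 on the minus strand. Capitals mark matches, on either strand, to CACCTG and TTTCCC, the boxes bound by the acinar factor complex PTF1, to TATAAA, the TATA box, and to TTCNNNGAA, the STAT site.
Reg1: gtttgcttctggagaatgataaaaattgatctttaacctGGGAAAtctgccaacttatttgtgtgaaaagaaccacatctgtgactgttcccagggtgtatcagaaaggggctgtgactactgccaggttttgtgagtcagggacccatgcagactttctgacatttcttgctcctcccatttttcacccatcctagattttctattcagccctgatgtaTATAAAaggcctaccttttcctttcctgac
Reg2: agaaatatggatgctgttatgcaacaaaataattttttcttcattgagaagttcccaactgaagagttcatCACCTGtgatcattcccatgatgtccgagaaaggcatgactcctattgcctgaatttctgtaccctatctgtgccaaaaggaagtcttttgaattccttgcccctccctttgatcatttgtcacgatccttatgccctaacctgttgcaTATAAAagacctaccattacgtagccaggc
Reg3b: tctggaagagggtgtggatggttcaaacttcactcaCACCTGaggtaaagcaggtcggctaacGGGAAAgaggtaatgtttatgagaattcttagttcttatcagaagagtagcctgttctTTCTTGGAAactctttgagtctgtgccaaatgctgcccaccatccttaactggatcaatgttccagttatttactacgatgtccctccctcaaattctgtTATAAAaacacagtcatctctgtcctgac
Reg3d: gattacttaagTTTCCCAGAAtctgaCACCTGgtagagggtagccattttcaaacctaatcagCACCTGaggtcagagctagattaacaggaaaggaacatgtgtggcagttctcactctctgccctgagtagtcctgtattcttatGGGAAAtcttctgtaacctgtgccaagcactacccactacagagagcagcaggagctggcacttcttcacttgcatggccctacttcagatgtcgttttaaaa
CACCTG occurred in 5 of the 7 Reg promoters, against 17.2% of 32851 mouse promoter windows of this length, and TTTCCC occurred in 4 of 7, against 21.9%. TATAAA was found in 4 of 7 Reg promoters, against 12.4% of all windows, and began 30 bases before the start in Reg1 and Reg2 and 29 bases before it in Reg3b. The STAT motif occurred in 2 of 7, Reg3b and Reg3d, against 7.02%, and in Reg3d it overlaps a TTTCCC match. Reg2 held a CACCTG and no TTTCCC, and Reg1 held a TTTCCC and no CACCTG, within these windows. The matches are a description of the letters.

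Cy5 was well above background on 10.7 to 17.3% of spots on the NOD arrays and on 3.96 to 7.88% on the NOD.B10 arrays, so the islet channel was the brighter in NOD. The Cy3 reference was well above background on 46.7 to 54.4% of spots on all 12 arrays. The arrays lay on 4 slides. Slide 1 held NOD 1 and 2, slide 2 held NOD 3 and 4 with NOD.B10 1 and 4, slide 3 held NOD 5 and 6 with NOD.B10 5 and 6, and slide 4, which was scanned on another day, held NOD.B10 2 and 3. Only slides 2 and 3 give a strain difference within a slide. A probe entered the tests if its islet signal exceeded background clearly (the scanner's mark) in 4 or more of the 12 mice. This held for 5347 probes, among them 3 of the 7 Reg probes.

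Detection of the Reg genes in the islet channel ranged from every array to none. Reg1 was well above background in Cy5 on 12 of 12 arrays, and Reg2 on 5 of 6 NOD and 3 of 6 NOD.B10 arrays. The mark does not mean a bright signal, since the net Cy5 of Reg1 was only 17 units on NOD.B10 3. Reg3b reached that mark on 3 NOD arrays and 1 NOD.B10 array, and Reg3d on NOD.B10 5 alone. Reg3a, Reg3g and Reg4 reached it on no array. The reference channel read 6 of the probes well above background on all 12 arrays and that of Reg4 on 10.

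**Figure D1:**
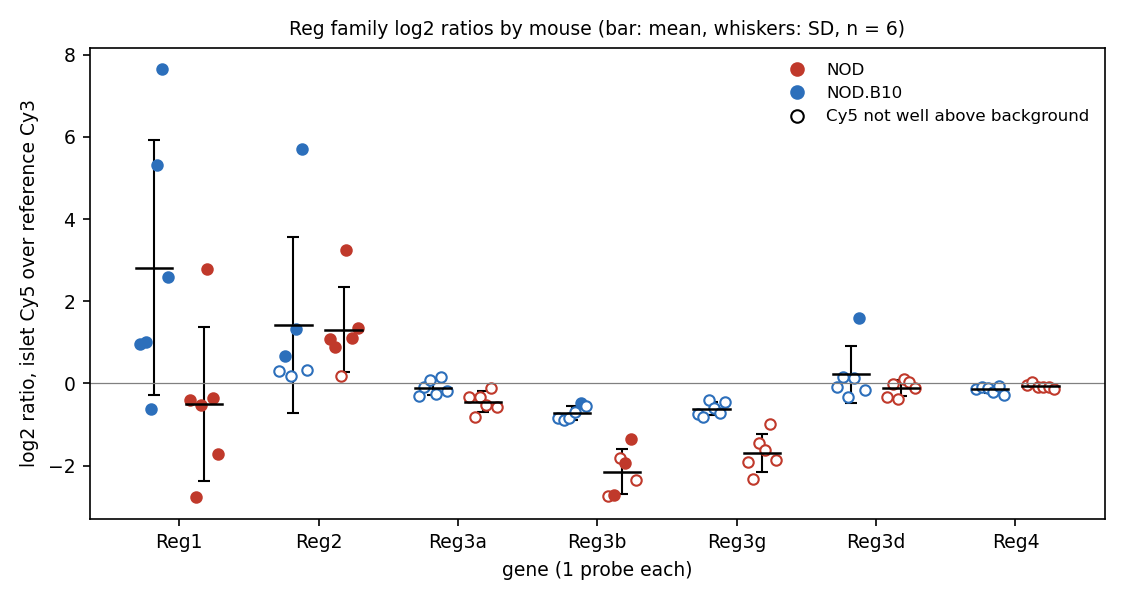
Log2 ratio of islet Cy5 over reference Cy3 after normalisation within the array (vertical axis) for each of the 7 Reg genes (horizontal axis). Each point is 1 mouse, NOD in red and NOD.B10 in blue, with the mean and SD of 6 mice. Open points are arrays on which Cy5 was not well above background. Reg1 and Reg2 spread widely within each strain, up to 7.65 and 5.70 in 1 NOD.B10 mouse, and most points of the other genes are open.

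Reg1 was lower in NOD on average, but the strains overlapped and the difference did not pass the test across all probes. After normalisation within the array, its log2 ratio in NOD ran from -2.78 through a median of -0.47 to 2.78. In NOD.B10 it ran from -0.63 through 1.79 to 7.65. These ratios are relative to probes of like intensity on the array and do not place Reg1 above the reference. Its net Cy5 was 0.0511 to 10.4% of its net Cy3, and 1.5% by the means over all arrays. Only NOD.B10 5 (10.4%), NOD.B10 4 (3.19%) and NOD 4 (2.85%) exceeded 1%. Among tested probes under 1% by these means, 68.6% were called lower in NOD, and the Reg1 difference carries a like limit. On slide 2, a net Cy5 of 99 units in NOD 3 gave a log2 ratio of -0.52, and 88 units in NOD.B10 1 gave 0.96. The highest NOD mouse, NOD 4, lay above 4 of the 6 NOD.B10 mice, and the lowest NOD.B10 mouse, NOD.B10 3, lay below 4 of the 6 NOD mice. The means were -0.50 ± 1.87 and 2.81 ± 3.11 (SD, n = 6 each). The difference, NOD minus NOD.B10, was -3.31 ± 1.29 on the log2 scale (SE, 95% interval -6.11 to -0.52, limma Benjamini-Hochberg adjusted p = 0.0611, exact 2-sided permutation p = 0.0541). It was -2.01 within slide 2 and -6.15 within slide 3, and without slide 4 it was -4.63 with a limma adjusted p of 0.0223. With the scanner's own processed ratio the limma adjusted p was 0.0164. Relative to all probes the difference shrank to -0.90 with median centring (limma adjusted p = 0.45) and to -1.82 with Cy5 alone (adjusted p = 0.0871), and it was -1.48 without NOD.B10 4 and 5 (adjusted p = 0.257). The net Cy5 signal of Reg1, before any scaling between arrays, ran from 63 to 706.5 scanner units in NOD and from 17 to 2439 in NOD.B10, with no strain difference beyond its spread (log2 -0.47, exact permutation p = 0.699).

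Reg2 differed between the strains by far less than its spread. Its log2 ratio ran from 0.17 through 1.09 to 3.26 in NOD and from 0.18 through 0.50 to 5.70 in NOD.B10. The highest mice were NOD 4 and NOD.B10 5, and the other 5 NOD.B10 mice reached 1.33 at most. Means were 1.31 ± 1.04 and 1.42 ± 2.14 (SD, n = 6 each), and the difference was -0.11 ± 0.85 (SE, 95% interval -1.94 to 1.73, limma adjusted p = 0.936). It was 0.90 within slide 2 and -1.77 within slide 3. The Cy3 signal of the Reg2 probe was 88 to 114 units on slides 1 to 3 and 211 and 240 units on the 2 arrays of slide 4.

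Reg3b, the antibacterial lectin induced in pancreatitis, was the 1 of the 3 tested Reg genes that passed the strain test, where 36.4% of all 5347 probes passed (20% higher and 16.4% lower in NOD). Its log2 ratio ran from -2.74 through -2.14 to -1.35 in NOD and from -0.90 through -0.78 to -0.48 in NOD.B10, and the groups did not overlap. The difference was -1.43 ± 0.22 (SE, limma adjusted p = 0.000424, exact permutation p = 0.00216, the smallest that 6 against 6 arrays can give), with -1.10 within slide 2 (adjusted p = 0.0594) and -1.33 within slide 3 (adjusted p = 0.283). The islet signal behind this ratio was close to background. Net Cy5 was 1 to 11 units in NOD and 1 to 19.5 units in NOD.B10, against a Cy3 signal of 6304 to 10150 units, and its unscaled log2 difference was 0.55 in favour of NOD (exact permutation p = 0.504). The mean net Cy5 of Reg3b was 0.0703% of its mean net Cy3. Among the 938 tested probes under 1% on this measure, 643 (68.6%) were called lower in NOD and 3 higher. The Reg3b call was lost when Cy5 was normalised without Cy3 (-0.13 relative to all probes, limma adjusted p = 0.368), with median centring (-0.39, adjusted p = 0.113) and with the scanner's processed ratio (-1.48, adjusted p = 0.0689).

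The other 4 members had too little islet signal for a test. Reg3g, the second antibacterial lectin, had net Cy5 from -1.5 to 7.5 units against a Cy3 signal of 2906 to 5578 units. Reg3a had net Cy5 from -4.5 to 7 units and Reg4 from -2.5 to 3.5 units. Reg3d was read well above background in NOD.B10 5 alone, with 45 units and a log2 ratio of 1.60, and the next mouse of that strain had 0.15. On these 4 probes no strain difference can be given, which is a limit of the signal and does not show that the genes were silent.

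The acinar signal was taken on each array as the mean log2 ratio of 17 tested digestive enzyme genes, 29 of the 40 listed being on the array. No Reg gene enters this mean. It ran from -2.29 through -1.33 to 0.85 in NOD and from -0.20 through 0.88 to 4.33 in NOD.B10. NOD.B10 5, NOD.B10 4 and NOD.B10 6 had the highest means, and among the NOD mice NOD 4 stood highest. The strain difference was -2.37 (exact 2-sided permutation p = 0.0173), with -1.65 within slide 2 and -3.47 within slide 3. In net Cy5 without scaling between arrays, the mean log2 signal of the same genes was 5.87 ± 1.75 in NOD.B10 and 5.79 ± 0.97 in NOD (SD over 6 mice), a difference of -0.08 (exact permutation p = 0.926), where the median difference of all tested probes was 1.97. The lower acinar signal of NOD was a difference relative to the other probes. Of the 17 enzymes, 13 were lower in NOD and none higher with limma, where 709 (18.1%) of all 3920 genes tested were lower. Among the 13 were Amy1, an amylase (-4.51, adjusted p = 0.00983), Dnase1 and Pla2g1b, while Cpa1, a carboxypeptidase, did not pass (-2.77, adjusted p = 0.0855). Of the tested probes with net Cy5 under 1% of net Cy3, 68.6% were called lower in NOD. That ratio is not given here for the enzymes, so their lower calls carry this limit.

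Reg1 followed the acinar signal closely from mouse to mouse within NOD.B10 and more loosely within NOD, and the relation of Reg2 rested on few mice. With strain in the model, the log2 ratio of Reg1 rose by 1.67 ± 0.15 (SE) per log2 unit of the acinar mean (limma adjusted p = 4.76e-05), and that of Reg2 by 0.998 ± 0.167 (limma adjusted p = 0.0159). Of 5347 probes 20 passed this test, which is 0.374%, and all 20 rose. Besides the 2 Reg probes these were 16 probes of listed acinar enzymes, 15 of them part of the mean, and 2 probes without a symbol. Dnase1 and Pla2g1b, also part of the mean, had slopes that did not pass (0.07 and 0.27, limma adjusted p = 0.998 and 0.344). Reg1 ranked 13th and Reg2 20th among the 20 passing probes by p. The slope of Reg3b was 0.16 ± 0.07 and did not pass (adjusted p = 0.998). A difference of slope between strains passed for 0 of 5347 probes with limma (517 at an unadjusted p under 0.05). It was -0.37 ± 0.33 for Reg1 (SE, adjusted p = 0.768) and -0.41 ± 0.36 for Reg2 (adjusted p = 0.759).

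**Figure D2:**
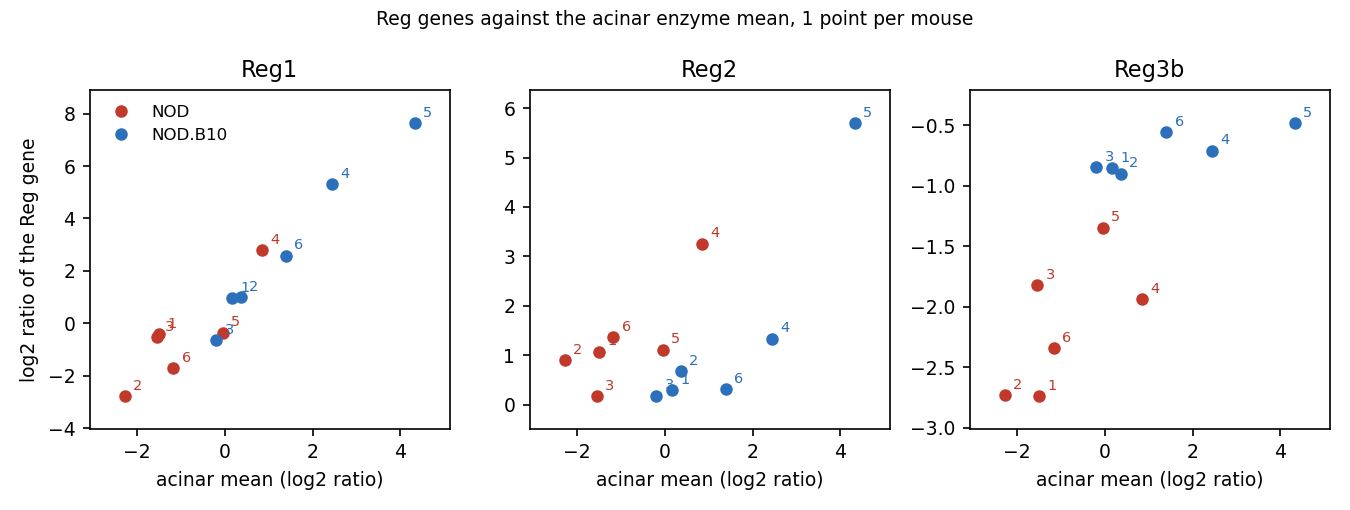
Log2 ratio of Reg1, Reg2 and Reg3b (vertical axes) against the acinar mean log2 ratio (horizontal axes), 1 numbered point per mouse, NOD in red and NOD.B10 in blue. Reg1 rises with the acinar mean across both strains, and Reg3b splits by strain. Only NOD 4 and NOD 5 reach the acinar means of NOD.B10, and their Reg2 lies above that of NOD.B10 mice with near acinar means. The rise of Reg2 hangs on NOD 4 and NOD.B10 5.

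Within NOD.B10, Reg1 and the acinar mean had the same order in all 6 mice (Spearman rho = 1, exact permutation p = 0.00278, Pearson r = 0.988, exact permutation p = 0.00139), and r was 0.953 without NOD.B10 4 and 5. Within NOD, r was 0.872 (exact permutation p = 0.0264) and rho 0.829 (exact permutation p = 0.0583), and r was 0.612 without NOD 4 and 5. For Reg2, r was 0.902 in NOD.B10 (exact permutation p = 0.00972, rho = 0.943 with p = 0.0167) and 0.791 in NOD (exact permutation p = 0.0597, rho = 0.886 with p = 0.0333). Without the 2 farthest mice the r of Reg2 fell to 0.154 and 0.251, so its relation rested on those mice. For Reg3b, r was 0.849 in NOD.B10 (exact permutation p = 0.0333, rho = 0.714 with p = 0.136, 0.882 without the farthest mice) and 0.65 in NOD (exact permutation p = 0.174, rho = 0.429 with p = 0.419, 0.399 without them). Over all 5347 probes, no Pearson or Spearman p of these 6 relations kept an adjusted value under 0.495. The slope of Reg1 passed in each fit that left out 1 mouse (1.60 to 1.75), and that of Reg2 was lost without NOD.B10 5 (0.57, limma adjusted p = 0.672) or without NOD 4 (0.98, adjusted p = 0.0891). Without both NOD 4 and NOD.B10 5 the Reg1 slope was 1.62 with a limma adjusted p of 0.0729, and the Reg2 slope was 0.29 with an adjusted p of 0.829.

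At equal acinar signal, the strain difference of Reg1 did not pass and that of Reg2 was positive. Only NOD 4 (0.85) and NOD 5 (-0.04) had acinar means above the lowest NOD.B10 mean (-0.20). For the other NOD mice the comparison rests on carrying the common slope beyond the range shared by the strains. With the acinar mean in the model, Reg1 differed by 0.65 ± 0.55 (SE, 95% interval -0.54 to 1.84, limma adjusted p = 0.444). The sign of this Reg1 estimate was reversed under 4 of 14 other settings. Relative to the median of all probes it was -2.34 in net Cy5 without scaling between arrays (limma adjusted p = 0.00325). Reg2 was higher in NOD by 2.25 ± 0.59 (95% interval 0.96 to 3.55, limma adjusted p = 0.0277), and Reg3b differed by -1.06 ± 0.26 (limma adjusted p = 0.0207). These were 2 of the 3 tested Reg genes, where 14% of all probes passed, 8.23% higher and 5.8% lower. The Reg3b call held under 3 of 13 other settings, and its estimate was 0.014 with Cy5 alone. Set against the acinar mean of the same array, Reg2 lay 1.16 to 3.18 above it in NOD and between -1.10 and 1.37 in NOD.B10, so that the groups overlapped by little (difference 2.26, exact permutation p = 0.00433). The same difference was 2.55 within slide 2 and 1.70 within slide 3. Nearly all of the difference of 2.26 was the strain difference of the acinar mean (-2.37), since Reg2 alone differed by -0.11. A flat probe gives a like value. Reg4, well above background on no array, gave 1.74 within slide 2 and 3.54 within slide 3. This measure therefore cannot show a higher Reg2 in NOD. For Reg1 the difference from the acinar mean was -0.95 (exact permutation p = 0.221), with -0.36 within slide 2 and -2.68 within slide 3. For Reg3b it was 0.94 (exact permutation p = 0.234), with 0.55 within slide 2 and 2.14 within slide 3. Its sign was thus opposite to that of the Reg3b estimate with the acinar mean in the model.

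**Figure D3:**
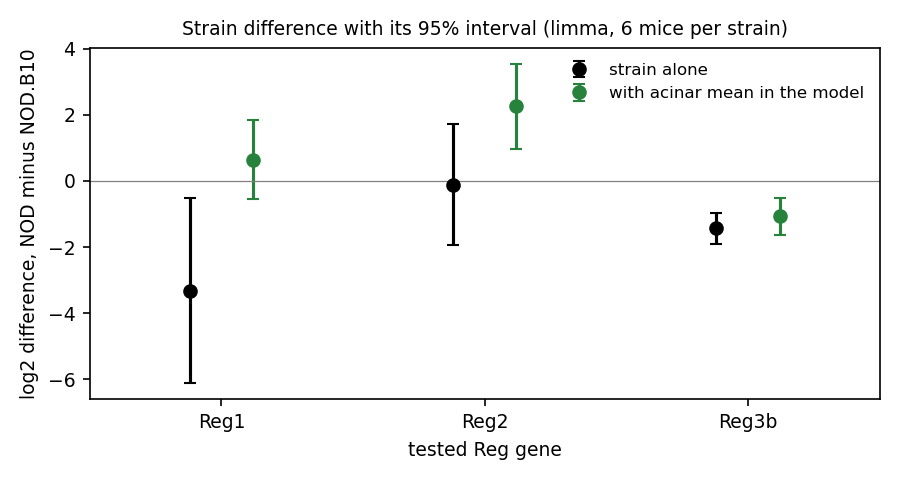
Log2 difference, NOD minus NOD.B10 (vertical axis), of the 3 tested Reg genes, with 95% intervals from limma, from strain alone (black) and with the acinar mean in the model (green). With the acinar mean, the Reg1 estimate moves from -3.31 to 0.65, that of Reg2 from -0.11 to 2.25, and that of Reg3b from -1.43 to -1.06.

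The higher Reg2 of NOD at equal acinar signal depended on how the channels were scaled. Relative to the median of all probes it was 0.03 with median centring in place of loess (limma adjusted p = 0.927), 0.51 with Cy5 alone (adjusted p = 0.287) and 4.04 with the scanner's processed ratio (adjusted p = 0.00548). In net Cy5 without scaling between arrays, where the median of all probes was itself 1.98 higher in NOD, Reg2 was -1.25 relative to that median (adjusted p = 0.0714). The net Cy5 of Reg2 set against that of the acinar enzymes on the same array, on the log2 scale, differed by 0.71 between strains (exact permutation p = 0.0996), and the groups overlapped, with -1.82 to -0.15 in NOD and -2.32 to -0.15 in NOD.B10. Without slide 4, where the Cy3 signal of the probe was higher, the estimate was 2.69 (limma adjusted p = 0.158), and without NOD 4 and NOD.B10 5 it was 0.98 (adjusted p = 0.273). The slope of Reg1, by contrast, stayed between 1.14 and 2.68 under 14 other settings and passed in 13 of them. Both ends of this range came from other acinar means, so their units differ from that of the main slope. The 1.14 was on the mean of Cpa1, Cpb1 and Pnlip, and the 2.68 on the mean of all 29 listed enzymes on the array, dim ones included.

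**Figure D4:**
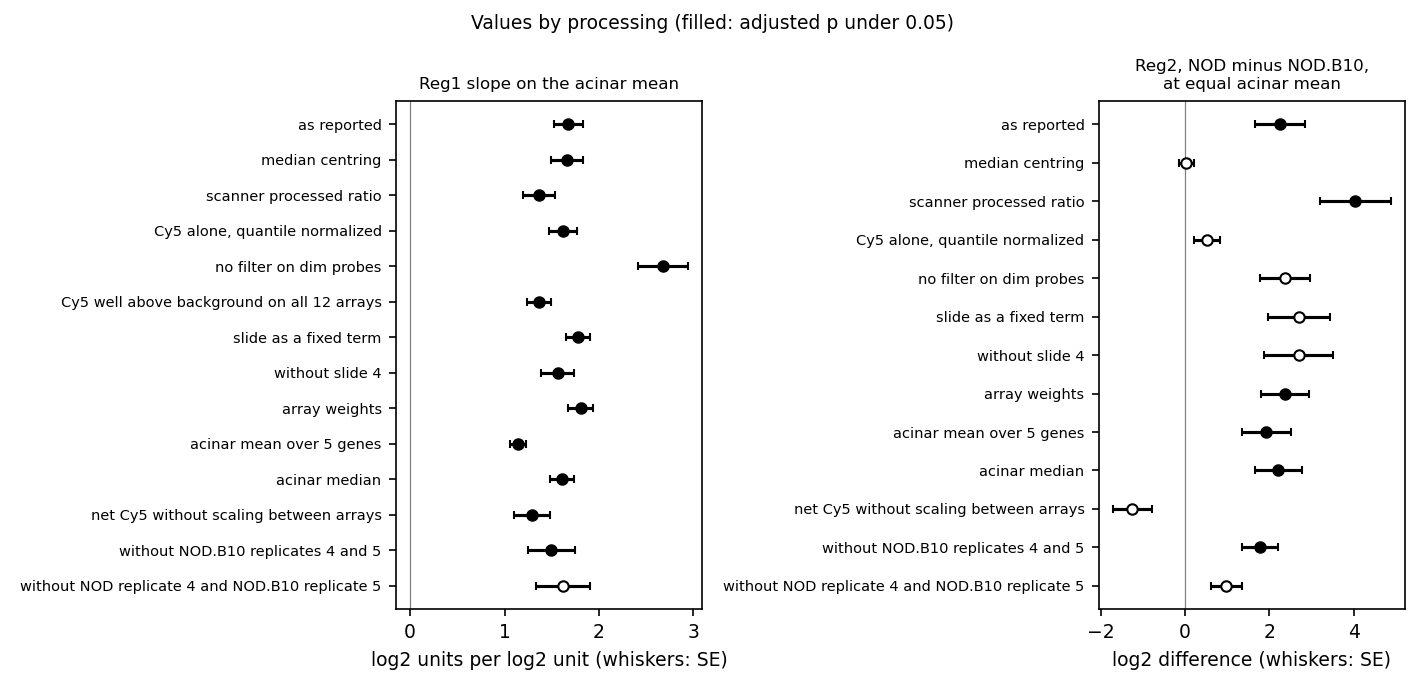
Reg1 slope on the acinar mean, in log2 units per log2 unit (left), and strain difference of Reg2 at equal acinar mean, in log2 units (right), under each processing setting named on the vertical axes, with SE whiskers. Filled points have a limma adjusted p under 0.05. The Reg1 slopes lie between 1.14 and 2.68, and the Reg2 differences run from -1.25 to 4.04. The setting named for 5 genes used Cpa1, Cpb1 and Pnlip, since Cela1 and Ctrb1 were not tested. The acinar mean was retaken under each filter, so slopes under other filters or acinar means are in other units.

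Genes that act before Reg expression in the STAT3 pathway were mostly too dim to test. Over all 3920 genes with a tested probe, 1444 (36.8%) passed the strain test, of which 735 (18.8%) were higher and 709 (18.1%) lower in NOD, with a median difference of -0.01. Of 15 listed cytokines above STAT3, only Il1b was tested. It was read in 4 NOD mice and no NOD.B10 mouse, so that it entered the test through NOD alone, and its lower bound on a fold was not above 1 although its ratio passed (0.44, limma adjusted p = 0.0413). Il6 and Il22 were well above background on no array. Of the listed receptors 2 of 4 tested were higher and none lower, 2 of the 4 having been read on no NOD.B10 array, Ifngr1, the interferon gamma receptor chain (2.30 ± 0.33, SE, limma adjusted p = 0.000273), and Osmr, the oncostatin M receptor (at least 1.75-fold). Of the kinases and STAT factors 2 of 4 were higher and none lower, among them Jak1, a receptor-bound kinase (1.42, limma adjusted p = 0.00199), while Stat3 itself did not pass (0.28 ± 0.12, adjusted p = 0.0868).

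Among 9 tested STAT3 target genes, 6 of which were read on no NOD.B10 array, 4 were higher and 2 lower. Junb, an AP-1 factor, rose by 2.36 ± 0.13 (SE, limma adjusted p = 1.86e-07), from 0.26 ± 0.03 in NOD.B10 to 2.61 ± 0.31 in NOD (SD over 6 mice). Socs3, the feedback inhibitor of STAT3, was at least 2.56-fold higher, a bound, since its signal was not well above background in any NOD.B10 mouse. Fgg, a fibrinogen chain, fell by 2.00 on the log2 scale (limma adjusted p = 0.00031). None of the 9 had a slope on the acinar mean that passed. Extl3, the candidate Reg receptor, was read in 6 NOD mice and no NOD.B10 mouse, so that it entered the test through NOD alone. Its ratio did not differ beyond its error (0.12 ± 0.09, limma adjusted p = 0.334). Its lower bound on a fold was not above 1, so no strain difference can be given. Of the 6 tested genes listed for Reg binding and secreted lectins 2 were lower, Mbl2 (-1.22) and Ext2 (-0.36). Of the acinar transcription factors only 1, Rbpjl, was tested and did not pass, and of the acinar stress genes 2 were tested and did not pass.

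Markers of other cell types moved with the strain. Of 20 listed leukocyte markers 14 were tested, and these were higher in NOD. Of the 14, 9 were read on no NOD.B10 array and entered the test through NOD alone, so their count is partly set by the filter. Ptprc was at least 10.3-fold and Jchain at least 8.86-fold higher, and the mean of the tested markers ran from 1.38 to 3.36 on the NOD arrays and from -0.22 to -0.07 on the NOD.B10 arrays. Of 9 tested beta cell genes 4 were lower, including Ins2 (-3.35, limma adjusted p = 0.000639) and Ins1 (-1.75, adjusted p = 0.0394). Of the other islet endocrine genes 3 of 8 were lower, with Chga and Gcg among them, and 1 higher. Of the duct markers 3 of 4 tested were lower, Ambp, Krt8 and Krt18, and Krt19 was well above background on no array. Of 9 endothelial and stromal genes 2 were higher, Vim and Dcn, and 1 lower, Col1a1, and 3 of 4 tested gut epithelium genes were lower, Fabp1, Fabp2 and Vil1. Among all tested probes with net Cy5 under 1% of net Cy3, 68.6% were called lower in NOD. That share is not given here for the listed genes outside the Reg family, so a lower call in any of these lists carries this limit. The part of these cell types in the strain differences of the Reg genes was not tested. None of these lists held a gene whose slope on the acinar mean passed.

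By likeness of pattern over the 12 arrays, each strain centred on its own mean, Reg1 was nearest to Pnlip (r = 0.978), Cpb1 (0.975) and Prss3 (0.956), a lipase, a carboxypeptidase and a trypsinogen of acinar cells, out of 3917 genes. Among the genes nearest to Reg2 were Cybc1 and Try5 (0.921 each), of which Try5 is a trypsinogen. Reg3b was nearest to Apoo (0.947), Il17rc (0.935) and Cxcl12 (0.927), none of them an acinar enzyme. Reg1 and Reg2 correlated with each other at r = 0.828, and their median r with the 17 acinar genes was 0.92 and 0.873. These values share the arrays and the normalisation, and the widest spread in them comes from the few mice with high acinar signal.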

How the data were processed

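The deposited scanner files give, for each spot, unnormalised intensity in either channel as the median of its pixels and of its local background. Per the file headers the authors used Feature Extraction 10.5.1.1. The same deposited files hold a log10 ratio, Cy5 over Cy3, of signals the scanner software had processed, and the deposited series table holds log2 values. These equal the scanner's ratio on the log2 scale within 0.01 for 100% of 321362 values compared, so Cy5 over Cy3 without further centring, with column medians from -0.285 to -0.062. The scanner's well-above-background marks were used as deposited.

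Here signals were corrected with normexp (offset 50, which draws low signals toward a ratio of 0 on the log2 scale) and within-array loess (limma 3.58.1, R 4.3.3). Control spots had weight 0 in loess, and outlier spots (250 to 379 per array) were left out where a probe had another spot. No spot was saturated. Accessions were matched to RefSeq symbols (24375 of 41174 probes). Strain, the slope on the acinar mean and strain with that mean were fitted with limma's moderated test over 5347 probes with Benjamini-Hochberg adjustment at 0.05. Companion genes were fitted with 1 probe per symbol. For a lower bound, NOD.B10 signals were raised, where dimmer, to the 10th percentile of that array's detected signals. Tested on simulated data of 5347 probes, strain differences of 1 and 2 were called in 81% and 99% of cases, with 10 false calls. Slopes of 0.5 and 1 were called in 89% and 97%, with 7 false calls. The simulated noise was independent between probes and had the spread left after strain and the acinar mean. These shares therefore check the fit and do not tell how often a difference in Reg1 or Reg2 would be called.

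Named genes are all Reg probes, from each list up to 3 passing genes with the lowest p, a few defining genes and the 3 genes most like each tested Reg gene. A few genes that this rule picks are not reported here. Members and lists were chosen with earlier results of these data known. Replicate numbers did not pair mice: same-numbered mice correlated at -0.155 to 0.23. Alternatives covered scaling, offset, filter, slide, array weights, the acinar measure and leaving out each mouse. Arrays carry no counts, and their number limits the precision. Probe sequences were not used here, so binding of one Reg transcript to another Reg probe was not tested.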

Additional observations from a re-analysis of the deposited data

Results flagged for a closer look

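Reg2 and Reg3d each had 1 NOD.B10 mouse far from the other 5, and it was the same mouse, NOD.B10 5. Its Reg2 log2 ratio was 5.70, against 1.33 in the next mouse of the strain, a gap of 0.791 of the strain's whole range. Its Reg3d log2 ratio was 1.60, against 0.15 in the next mouse, a gap of 0.75 of the range. Both were among 22 groups of values examined, and chance alone marks about 1 group in 20 this way. The same mouse had the highest acinar mean (4.33) and the highest Reg1 (7.65) of all 12 mice. Whether its section held more exocrine tissue was not tested.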

How the results depend on the processing

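Low islet signal kept 4 of 7 Reg genes from a test. Of 237 estimates of Reg genes under other settings, 177 kept direction and side of the threshold, and of 95 counts 58 stayed within 1.5 times. Two-mouse omissions and unscaled net Cy5 were chosen after seeing the data, and values with other scalings are relative to the median of all probes and tested against it. The cause of a change was not tested. With only probes well above background on all 12 arrays, Reg1 was the 1 Reg gene tested, and its slope passed (limma adjusted p = 2.19e-05). Reg2 and Reg3b had left the test, so the lower counts in that setting are not lost calls.

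The number of Reg genes passing the strain test (1) was 0 with median centring, Cy5 alone, all 12 arrays well above background, and within slides 2 and 3, and 2 with offset 16, no filter (which lets in Reg3g, not well above background on any array, so its pass gives no strain difference), without slide 4 and without NOD 4 and NOD.B10 5. Reg1 passed with the scanner ratio and the deposited table (-3.30 each), offset 16 (-3.95), without slide 4 (-4.63) and without NOD 4 and NOD.B10 5 (-3.001). Reg3b no longer passed with median centring (-0.39), the scanner ratio and table (-1.48 each), Cy5 alone (-0.13) and within slides 2 (-1.10) and 3 (-1.33). Reg2 changed sign, without passing, within slide 2 (0.90), with array weights (0.055), without NOD.B10 4 and 5 (0.94), without NOD 4 and NOD.B10 5 (0.36), without NOD 3 (0.12) and without NOD.B10 5 (0.75).

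The number of slopes passing (2) was 1 with no filter, all 12 arrays well above background, slide fixed, without slide 4 and without NOD.B10 4 and 5, and 0 without NOD 4 and NOD.B10 5. In that last setting Reg1 had 1.62 and Reg2 0.29. The Reg2 slope also no longer passed with no filter (1.61), slide fixed (1.22), without slide 4 (1.09, limma adjusted p = 0.0797) and without NOD.B10 4 and 5 (0.60).

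At equal acinar mean the number passing (2) was 0 with median centring, Cy5 alone, no filter, all 12 arrays well above background, slide fixed, without slide 4 and without NOD 4 and NOD.B10 5, and 1 with the scanner ratio, net Cy5 and without NOD.B10 4 and 5. Reg2 no longer passed with median centring (0.03), Cy5 alone (0.51), no filter (2.36), slide fixed (2.69), without slide 4 (2.69) and without NOD 4 and NOD.B10 5 (0.98), and was -1.25 in net Cy5. Reg1 was -0.70 with median centring, -0.25 with the scanner ratio, -0.041 with Cy5 alone and -2.34 in net Cy5 (adjusted p = 0.00325, the 1 call there), and Reg3b was 0.014 with Cy5 alone.

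With the replicate block, 2 Reg genes passed the strain test (Reg1 -3.31, limma adjusted p = 0.0252), 1 passed the slope (Reg2 1.75 no longer, Reg3b -0.10) and 0 passed at equal acinar mean (Reg2 4.03, adjusted p = 0.101). The numbers share no label that pairs mice, and 1 of 6 mice correlated best with its own number.

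Leaving out 1 mouse at a time, counts ran from 1 to 2 for strain, 1 to 2 for slopes and 0 to 2 at equal acinar mean. The Reg1 strain difference ran from -4.002 to -2.35, that of Reg2 from -0.50 to 0.75 and that of Reg3b from -1.59 to -1.31. The slope of Reg1 ran from 1.60 to 1.75 and that of Reg2 from 0.57 to 1.07, and Reg2 at equal acinar mean ran from 1.76 to 2.62, no longer passing without NOD 4, NOD 6 or NOD.B10 1, 2 or 3. The number of companion genes passing ran from 44 to 58.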
